A study of Mus musculus with 16 samples.

Results

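This account covers 73 of the 24454 genes counted in mouse gonadal fat: the protein-coding genes whose symbols begin with Defb, Lcn or Wfdc and a digit, together with Crisp1, Adam7 and Ces5a. The set held 42 beta-defensin genes (Defb), 10 lipocalin genes (Lcn), 18 genes of the WAP four-disulfide core family (Wfdc) and the 3 single genes. The families were taken by symbol and the 3 single genes by name, with earlier results of these data known. They were followed in each library to see which of them tracked Crisp1, whose level was known to be high in 6 of the 16 libraries (VX_Veh4, VX_SHU4, Sham_SHU4, Sham_SHU3, Sham_Veh3 and Sham_Veh4).

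The epididymis is the coiled duct beside the testis in which sperm mature, and gonadal fat of male mice lies against it. Its epithelium secretes proteins that coat the sperm surface, and each stretch of the duct, from the initial segment through caput and corpus to cauda, makes its own mixture. Beta-defensins are small cationic peptides held by disulfide bonds that act against microbes, and several bind sperm. Lipocalins carry small lipophilic molecules, and WAP-domain proteins resemble secreted inhibitors of proteases. Crisp1 is a cysteine-rich secretory protein that coats sperm, Adam7 is an epididymal membrane protein of the ADAM family, and Ces5a is a secreted carboxylesterase. Many genes of this kind are under androgen control.

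All mice were lean male C57BL/6J animals, 16 weeks old, kept on standard chow. They had sham surgery or subdiaphragmatic vagotomy (sDVX), which severs the vagus nerve below the diaphragm. Starting 4 weeks later they were given vehicle or SHU9119, a blocker of melanocortin receptors, at 1 nmol per day into the cerebral ventricles from an osmotic minipump for 2 weeks, with isocaloric feeding. Each of the 4 groups (Sham_Veh, Sham_SHU, VX_Veh and VX_SHU) held 4 libraries of polyadenylated RNA from frozen gonadal fat. Whether the 4 libraries of a group are 4 different mice is not stated in the labels; the p-values below therefore describe the spread among libraries, which may be technical.

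Library totals were 20425295 to 30889052 counts, and 18227 to 20253 genes had a count. Levels are given as CPM (counts scaled to the size of the library) with TMM factors, which adjust for its composition. The summed CPM of 10 adipocyte markers was 14947 in VX_Veh1 and 24417 to 46143 in the other libraries. Of 26 epididymis genes outside the families, 24 had at least 20 counts over all libraries, and their sum was 2774 CPM in VX_Veh4 and 2250 in VX_SHU4. Much of the sum in low libraries was Sult1e1 alone, which did not follow Crisp1 (23.3 to 168 CPM, highest in Sham_Veh1). Without it, a choice made after the values were seen, the sum was 2698 CPM in VX_Veh4, 2159 in VX_SHU4, 899.8 in Sham_SHU4, 463 in Sham_SHU3, and 208 and 195 in Sham_Veh3 and Sham_Veh4. The other 10 libraries then had 2.77 to 13.1 CPM, apart from Sham_Veh2 with 71.6. Spink8 alone gave 1617 CPM of this sum in VX_Veh4 and 1243 in VX_SHU4. Only 9 of the 24 genes were above the other 10 libraries in all 6, against 1.02% of all genes with as many counts. The sum of 12 spermatid and sperm genes was 3119 CPM in Sham_Veh4, 1528 in Sham_SHU3 and 61.2 to 392 elsewhere. In bulk RNA of this kind, fewer cells of a type and less RNA per cell cannot be told apart.

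Of the 73 members, 69 had at least 1 count, 56 had at least 20 counts over all libraries and 42 passed the filter used for tests. Those 42 were 21 Defb, 2 Lcn and 16 Wfdc genes with the 3 single genes, and a member high in only 1 group could pass through that group. Defb5, Defb7, Defb8 and Defb46 had no count in any library, and 13 members had 1 to 19 counts. The members' share of all counts was 1.57% in VX_SHU4, 1.53% in VX_Veh4, 0.476% in Sham_SHU4, 0.264% in Sham_SHU3, 0.104% in Sham_Veh3 and 0.0968% in Sham_Veh4. In the other 10 libraries it was 0.00559% (Sham_SHU1) to 0.0741% (VX_Veh1).

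Crisp1 (chr17:40293758-40319207, minus strand, GRCm38) was at 0.229, 5.68, 488 and 416 CPM in Sham_Veh1 to Sham_Veh4, and at 2.13, 58.4, 1262 and 2601 CPM in Sham_SHU1 to Sham_SHU4. It was at 4.83, 2.92, 14.5 and 7696 CPM in VX_Veh1 to VX_Veh4, and at 9.17, 22.7, 3.97 and 8227 CPM in VX_SHU1 to VX_SHU4. Every group held at least 1 high and at least 2 low libraries, so the ranges of the 4 groups overlapped. The lowest of the 6 high libraries, Sham_Veh4, was 7.13-fold above the highest of the other 10, Sham_SHU2, and Crisp1 spanned 19.8-fold among the 6. The library numbered 4 was high in each group, and that numbered 3 in both sham groups only.

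Adam7 (chr14:68497336-68533689, minus strand) was at 1864 and 2003 CPM in VX_Veh4 and VX_SHU4, 556 in Sham_SHU4, 306 in Sham_SHU3, 106 in Sham_Veh3 and 82.6 in Sham_Veh4. In the other 10 libraries it lay between 0.576 and 13.5 CPM, with a median of 2.49. Ces5a (chr8:93499063-93535879, minus strand) was at 1481, 1463, 453, 245, 95.2 and 75.6 CPM in the same 6 libraries, and at 0.0763 to 6.00 CPM in the other 10, with a median of 1.63. Both genes put the 6 libraries above the other 10, and both had the VX pair far above the sham libraries. Per kilobase of exon in VX_SHU4, Crisp1 stood at 5810 CPM, Wfdc10 at 1355, Defb28 at 1242, Wfdc15b at 925, Defb2 at 609, Ces5a at 513 and Adam7 at 463, so Crisp1 was the highest member on that scale.

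The 250 bases before the transcript start are shown for members with different patterns over the libraries, so that the sequences can be read beside the levels. Crisp1, Defb43 and Wfdc15b were high in the 6 libraries, Lcn10 was found in 1 library outside them, and Lcn2 was high in other libraries. Sequences are RefSeq promoters of GRCm38.p6, read 5′ to 3′ on the gene's strand. Capitals mark AGAACA, a short element recognised by the androgen receptor and also by the glucocorticoid receptor, and TATAAA, the core of the TATA box, or their reverse complements TGTTCT and TTTATA.
Crisp1, chr17:40319208-40319457, minus strand: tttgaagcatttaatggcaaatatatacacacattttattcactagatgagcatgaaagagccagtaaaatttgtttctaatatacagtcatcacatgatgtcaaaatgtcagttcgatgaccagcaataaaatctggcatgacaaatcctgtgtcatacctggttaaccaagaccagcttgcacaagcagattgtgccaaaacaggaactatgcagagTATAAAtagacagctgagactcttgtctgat
Defb43, chr14:63011521-63011770, plus strand: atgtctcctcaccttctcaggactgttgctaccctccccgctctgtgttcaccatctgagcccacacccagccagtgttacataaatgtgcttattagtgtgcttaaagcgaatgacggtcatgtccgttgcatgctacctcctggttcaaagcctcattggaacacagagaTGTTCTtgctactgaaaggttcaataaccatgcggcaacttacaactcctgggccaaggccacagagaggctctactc
Wfdc15b, chr2:164221664-164221913, minus strand: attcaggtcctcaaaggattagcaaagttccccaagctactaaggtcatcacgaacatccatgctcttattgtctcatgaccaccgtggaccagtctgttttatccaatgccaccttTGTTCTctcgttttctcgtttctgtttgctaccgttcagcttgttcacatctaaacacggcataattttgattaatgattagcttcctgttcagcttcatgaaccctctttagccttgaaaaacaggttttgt
Lcn10, chr2:25682476-25682725, plus strand: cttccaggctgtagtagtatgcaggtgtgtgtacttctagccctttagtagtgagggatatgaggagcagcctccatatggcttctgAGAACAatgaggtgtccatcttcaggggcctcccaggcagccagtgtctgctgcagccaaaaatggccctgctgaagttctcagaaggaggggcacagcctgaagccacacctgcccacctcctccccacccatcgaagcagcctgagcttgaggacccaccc
Lcn2, chr2:32387740-32387989, minus strand: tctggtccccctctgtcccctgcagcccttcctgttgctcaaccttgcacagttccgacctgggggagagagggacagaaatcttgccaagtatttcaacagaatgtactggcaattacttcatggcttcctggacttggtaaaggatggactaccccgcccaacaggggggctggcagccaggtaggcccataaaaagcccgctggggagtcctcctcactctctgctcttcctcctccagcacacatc
Crisp1 held TATAAA 31 bases before its start and no AGAACA. Defb43, Wfdc15b and Lcn10 held the AGAACA letters 78, 133 and 163 bases before theirs, on the opposite strand in the first pair, and the Lcn2 window held neither motif.

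Promoters were matched for 55 members (59 windows), and Adam7 and Wfdc21 were not among them. AGAACA, on either strand, was in 22 of the 59 windows (37.3%), in 13.7% of all protein-coding promoters of that length and in 19.5% of those with GC content like the members'. Among members high in all 6 libraries it was in 10 of 23 windows (43.5%), and among the other members in 12 of 36 (33.3%). TATAAA was in 16.9% of the members' windows, 11.6% of all protein-coding ones and 14.4% of those with GC content like the members'. It was in 3 of 23 windows (13.0%) of members high in all 6 libraries and in 7 of 36 (19.4%) of the other members. These shares describe letters in a window, and neighbouring family members have related sequences.

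A member was counted as following Crisp1 when its CPM in each of the 6 libraries was above its highest CPM in the other 10. Because the 6 libraries were known to be high in Crisp1, this is a description without a test. Of the 56 members with at least 20 counts, 29 did so (51.8%), against 196 of 19190 genes with as many counts (1.02%). Crisp1 is among them by construction, since its own level set the 6 libraries apart. Without it, 28 of 55 members followed (50.9%), against 195 of 19189 genes (1.02%): 17 of 30 Defb genes, 1 of 6 Lcn genes, 8 of 17 Wfdc genes, Adam7 and Ces5a. Adam7 and Ces5a were taken by name with earlier results of these data known, so their place among the 28 is not support. By family the share was 56.7% for Defb, 16.7% for Lcn and 47.1% for Wfdc. The families too were chosen with those results known. The 6 libraries held a median of 99.4% of the summed CPM of the 29 (72.5% to 100%), and over 98% for 25 of them. A further 14 members exceeded the other 10 libraries in 1 to 5 of the 6, and 13 did so in none. The highest library of the 29 was VX_Veh4 for 17, VX_SHU4 for 11 and Sham_Veh4 for Defb30. By definition a member that follows is highest in 1 of the 6. Of all 56 members, 33.9% were highest in VX_Veh4 and 28.6% in VX_SHU4, against 6.70% and 5.93% of the 19190 genes.

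**Figure D1:**
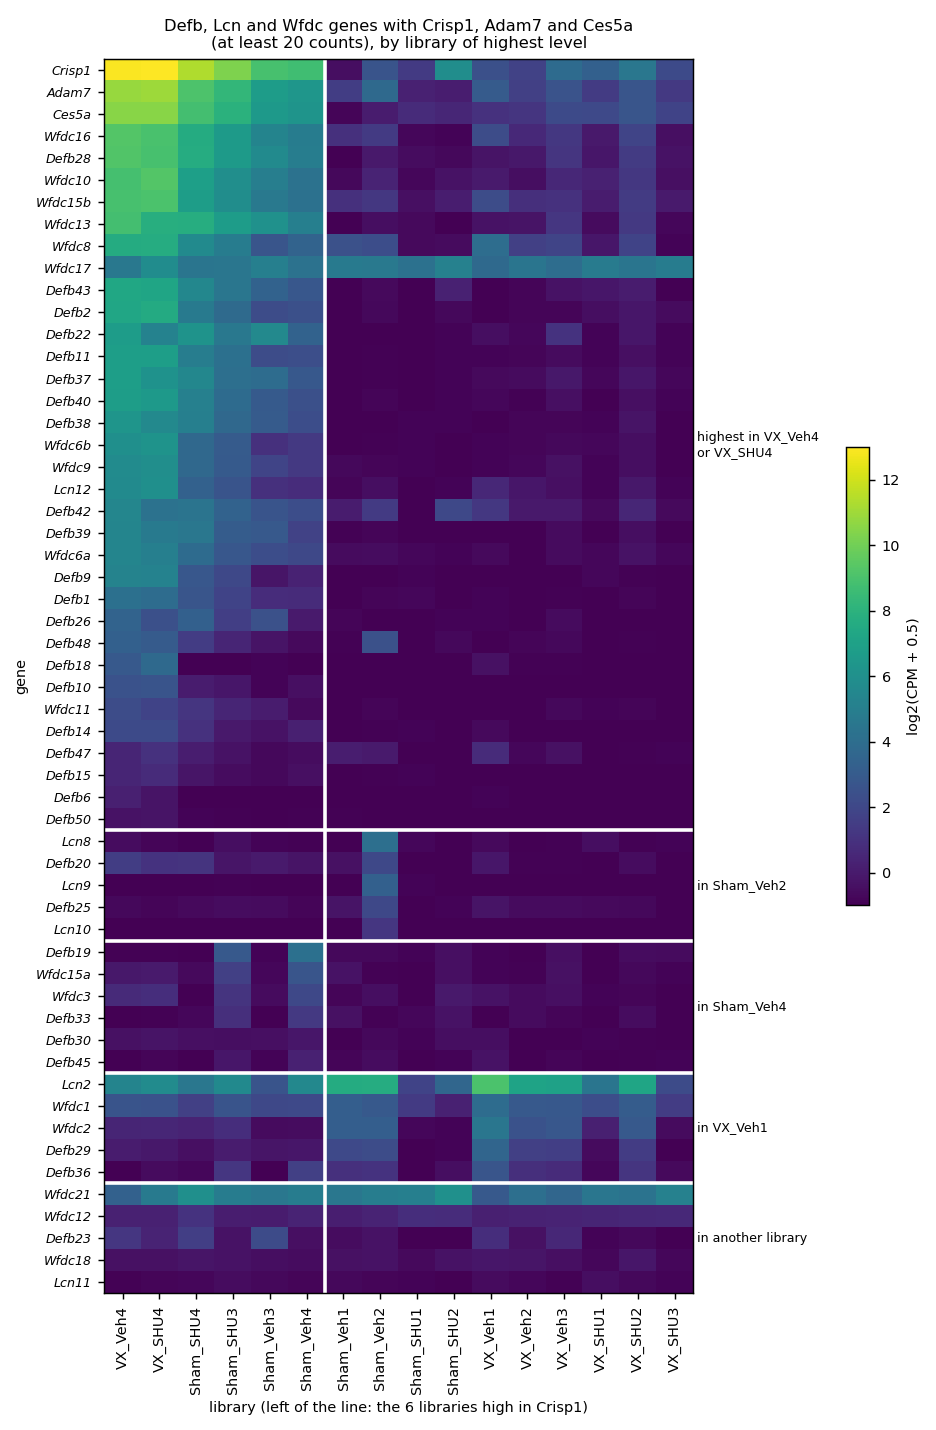
Each row is a gene with at least 20 counts and each column a library, with colour for log2(CPM + 0.5); the 6 libraries high in Crisp1 stand left of the vertical line, and horizontal lines separate genes by the library in which they were highest. The 35 genes highest in VX_Veh4 or VX_SHU4 form the upper block, and the Lcn8, Lcn9 and Lcn10 signal is seen in Sham_Veh2.

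Among defensins, the 17 that followed Crisp1 were Defb1, Defb2, Defb9, Defb10, Defb11, Defb14, Defb15, Defb22, Defb26, Defb28, Defb30, Defb37, Defb38, Defb39, Defb40, Defb42 and Defb43. Defb28 (chr2:152518255-152521447, plus strand) had the highest mean CPM of the family, with 592 in VX_Veh4, 493 in VX_SHU4, 203 in Sham_SHU4, 97.3 in Sham_SHU3, 51.2 in Sham_Veh3 and 30.4 in Sham_Veh4. Its range over the other 10 libraries was 0 to 2.24 CPM, with a median of 0.373, so the 2 sets of libraries were far apart. Defb43 (chr14:63011771-63018088, plus strand) was at 159, 151, 45.0, 22.1, 10.1 and 6.37 CPM in the 6 libraries in that order, and its highest value in the other 10 was 0.741 CPM.

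Defb22 (chr2:152485666-152490138, minus strand) encodes a glycosylated defensin of the sperm coat. It was at 108 CPM in VX_Veh4, 37.1 in VX_SHU4, 71.4 in Sham_SHU4, 24.0 in Sham_SHU3, 48.6 in Sham_Veh3 and 10.2 in Sham_Veh4, and at most 1.55 in the other 10. Thus it followed Crisp1 in presence but not in order: Sham_Veh3 exceeded VX_SHU4, although its Crisp1 level was 488 CPM against 8227. Defb2 went the other way, with 154 and 186 CPM in VX_Veh4 and VX_SHU4, 25.8 and 13.6 in Sham_SHU4 and Sham_SHU3, and 4.34 and 4.76 in Sham_Veh3 and Sham_Veh4.

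Several defensins were present without following Crisp1 in all 6 libraries. Defb18, named after its values were seen, had 6.92 CPM in VX_Veh4 and 13.3 in VX_SHU4, at most 0.0413 in the other 4 of the 6, and 0.261 in VX_Veh1. Defb6, Defb18 and Defb48 exceeded the other 10 libraries in the VX pair only. Defb42 followed Crisp1 by a small margin, since its lowest value of the 6 was 4.48 CPM in Sham_Veh4 and its highest of the 10 was 3.66 in Sham_SHU2. The margin of Defb30, with 60 counts over all libraries, was smaller still: 0.220 CPM in Sham_SHU3 against 0.217 in VX_Veh1. Defb10 had only 1 count in Sham_Veh3 and none in the other 10 libraries. Reads of Defb2, Defb9, Defb10 and Defb11 are less certain, because 20.7%, 9.96%, 16.9% and 19.8% of their 50-base transcript windows occur in another gene. For Defb15, 58.0% of exon bases overlap a gene on the opposite strand, and the strand setting of the counting is not given in the sources used here.

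Among lipocalins, Lcn12 alone followed Crisp1 (1 of the 6 with at least 20 counts). Lcn12 (chr2:25490845-25494061, minus strand) was at 50.8 CPM in VX_Veh4, 62.9 in VX_SHU4, 9.68 in Sham_SHU4, 5.77 in Sham_SHU3, 1.40 in Sham_Veh3 and 1.22 in Sham_Veh4. Its highest level in the other 10 was 1.00 CPM in VX_Veh1, so the sham vehicle libraries exceeded the rest only narrowly.

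Lcn8, Lcn9 and Lcn10, lipocalins made in the first part of the duct, had another pattern. Lcn8 (chr2:25653118-25656217, plus strand) was at 16.6 CPM in Sham_Veh2 and at most 0.222 CPM in any other library, so that 93.7% of its summed CPM came from Sham_Veh2. For Lcn9 (9.21 CPM) and Lcn10 (1.82 CPM) that library gave 99.1% and 100%. Crisp1 was at 5.68 CPM there, below its level in 4 of the other 9 libraries outside the 6. Lcn3, Lcn4, Lcn5 and Lcn6 had under 20 counts over all libraries, and Lcn11 was above the others in none of the 6.

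Lcn2, which binds bacterial siderophores and is made by neutrophils and by stressed epithelia, was the most abundant lipocalin and did not follow Crisp1. It was at 196, 206, 5.66 and 46.2 CPM in Sham_Veh1 to Sham_Veh4, 3.08, 11.9, 49.3 and 22.7 in Sham_SHU1 to Sham_SHU4, 534, 139, 130 and 39.5 in VX_Veh1 to VX_Veh4, and 21.1, 149, 4.10 and 54.5 in VX_SHU1 to VX_SHU4. All 4 group ranges overlapped, and the 6 Crisp1-high libraries held 13.5% of its summed CPM. Of 10 neutrophil markers, Ltf, which encodes lactoferrin, was itself high in the 6 libraries (1076 CPM in VX_Veh4). All 10 summed to 1122 CPM in VX_Veh4, the highest library. The other 9, a choice made after the values were seen, summed to 26.9 to 59.0 CPM over the 16 libraries. That sum was lowest in VX_Veh1, and the part of neutrophils in the Lcn2 level was not tested.

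Among WAP-domain genes, Wfdc6a, Wfdc6b, Wfdc9, Wfdc10, Wfdc11, Wfdc13, Wfdc15b and Wfdc16 followed Crisp1. Wfdc16 (chr2:164634701-164638808, minus strand) was at 621 CPM in VX_Veh4, 508 in VX_SHU4 and 28.9 (Sham_Veh4) to 194 (Sham_SHU4) in the 4 sham libraries, with 0.0412 to 4.35 in the other 10. Wfdc10 (chr2:164656046-164657368, plus strand) was at 468, 622, 121, 59.5, 30.8 and 19.0 CPM in the same order, against at most 1.93 elsewhere. Wfdc15b (chr2:164214454-164221663, minus strand) reached 489 and 529 CPM in the VX pair and 18.4 to 110 in the 4 sham libraries.

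Wfdc13 (chr2:164685107-164687706, plus strand) was at 445 CPM in VX_Veh4 but 222 in VX_SHU4, which was close to the 212 of Sham_SHU4. Wfdc8 (chr2:164596458-164613626, minus strand) was above the other 10 libraries in 4 of the 6: it had 196 and 205 CPM in the VX pair and 52.3 and 28.8 in Sham_SHU4 and Sham_SHU3, but 5.99 in Sham_Veh3 and 10.5 in Sham_Veh4 against 15.8 in VX_Veh1. Reads of Wfdc6a and Wfdc6b cannot be assigned firmly, since 46.7% and 40.9% of their 50-base windows occur in another gene, each mainly in the other.

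Counts of each member per 1000 Crisp1 counts of the same library gave a measure that needs no scaling between libraries. With at least 10 counts in each of the 6 libraries, 28 members other than Crisp1 entered, and the highest over the lowest ratio had a median of 2.60-fold. It was within 2-fold for 11 members and over 4-fold for 10.

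Ces5a had the narrowest range, with 192 counts per 1000 Crisp1 counts in VX_Veh4, 178 in VX_SHU4, 174 in Sham_SHU4, 194 in Sham_SHU3, 195 in Sham_Veh3 and 182 in Sham_Veh4 (1.12-fold), while Crisp1 itself spanned 19.8-fold. Adam7 came next with 242, 243, 214, 242, 216 and 198 (1.23-fold), then Defb40 with 14.3, 11.3, 12.8, 11.5, 14.7 and 11.8 (1.31-fold), Wfdc16 (1.33-fold) and Defb43 (1.35-fold). These genes kept nearly fixed proportions to Crisp1 in libraries of all 4 groups.

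Members with wide ranges fell into 2 kinds. Wfdc21 (55.5-fold), Wfdc12 (22.5-fold), Wfdc17 (21.7-fold), Lcn2 (21.6-fold) and Wfdc1 (14.6-fold) exceeded the other 10 libraries in 0 or 1 of the 6. Defb22 (22.1-fold), Defb26 (17.0-fold), Wfdc13 (5.19-fold), Defb42 (5.12-fold) and Defb39 (4.60-fold) followed it in presence, but in changing proportion. Defb22 had 14.0, 4.51, 27.5, 19.0, 99.6 and 24.5 counts per 1000 Crisp1 counts in the order above, and Wfdc13 had 57.8, 27.0, 81.4, 83.6, 140 and 77.6. Both were lowest in VX_SHU4 and highest in Sham_Veh3, as were Defb26, Defb39 and Defb42.

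Of the 28 members, 13 had their highest ratio in Sham_Veh3 and 14 their lowest in VX_SHU4. A smaller set, Defb2, Defb11, Lcn12, Wfdc6b and Wfdc8, was lowest in Sham_Veh3. Lcn12 stood at 6.60 and 7.64 per 1000 Crisp1 counts in VX_Veh4 and VX_SHU4, 3.72 and 4.57 in Sham_SHU4 and Sham_SHU3, and 2.87 and 2.92 in Sham_Veh3 and Sham_Veh4. The ratios have 1 library per point and no test.

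**Figure D2:**
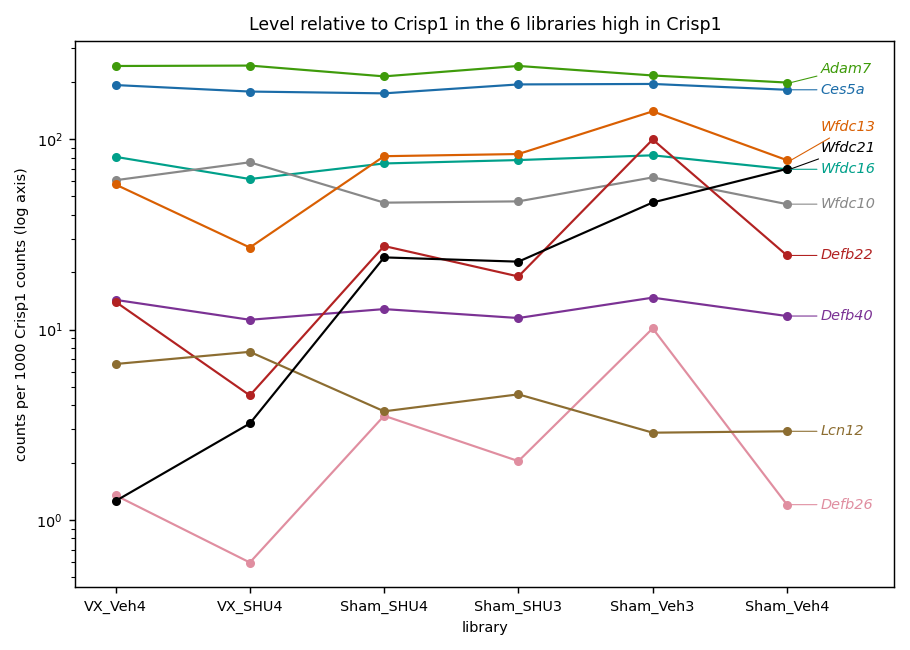
Counts per 1000 Crisp1 counts of the same library on a log axis, for 10 genes in the 6 libraries high in Crisp1; lines join the values of 1 gene. Ces5a, Adam7 and Defb40 are nearly level, Defb22, Defb26 and Wfdc13 dip in VX_SHU4 and peak in Sham_Veh3, and Wfdc21 runs from 1.26 in VX_Veh4 to 69.8 in Sham_Veh4.

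Outside the 6 libraries, Sham_SHU2 had the highest Crisp1 level (1418 counts) but only 14 Adam7 and 22 Ces5a counts. That is 9.87 and 15.5 per 1000 Crisp1 counts, far below the 198 to 243 and 174 to 195 of the 6 libraries. Sham_SHU2 also had 3.66 CPM of Defb42 and 8.23 CPM of Spink8, an epididymal protease inhibitor gene outside the families. VX_SHU2, the next library by Crisp1 with 730 counts, had 190 Adam7 and 193 Ces5a counts (260 and 264 per 1000). Sham_Veh2, VX_Veh1 and Sham_Veh1 had more Adam7 than Crisp1, with 372 against 156 counts, 172 against 111 and 62 against 6.

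Of the 56 members, 21 were highest in a library other than VX_Veh4 and VX_SHU4, most of them in Sham_Veh2, Sham_Veh4 or VX_Veh1. Sham_Veh2 was the highest library for 5 of the 56 members (8.93%; Lcn8, Lcn9, Lcn10, Defb20 and Defb25), against 1.70% of 19190 genes. Of the 24 epididymis genes outside the families, 7 were highest there too, among them Gpx5, a glutathione peroxidase of the caput, at 24.7 CPM. In the VX pair Gpx5 was at 3.50 CPM (VX_Veh4) and 14.3 CPM (VX_SHU4), and in the 4 sham libraries high in Crisp1 it was at most 0.147.

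Sham_Veh4 was the highest library for 6 members (10.7%), against 18.8% of all genes: Defb19, Defb30, Defb33, Defb45, Wfdc3 and Wfdc15a. Defb19, named with its values after they were seen, was at 17.7 CPM in Sham_Veh4, 6.98 in Sham_SHU3 and at most 0.247 in the other 14. The spermatid and sperm list had its highest sums in the same pair, and all of its 12 genes were highest in Sham_Veh4. Its part in the Defb19 level was not tested.

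VX_Veh1 was the highest library for 5 members (8.93%), against 23.4% of all genes: Lcn2 (534 CPM), Wfdc2 (22.1), Wfdc1 (14.8), Defb29 (11.5) and Defb36 (5.96). Wfdc2 is a WAP protein of airway and reproductive tract epithelium. Defb29 was at 3.70 and 4.29 CPM in Sham_Veh1 and Sham_Veh2, 2.61 and 2.54 in VX_Veh2 and VX_Veh3, 2.27 in VX_SHU2 and at most 0.551 in the other 10. A list of 10 measured motile cilia genes summed to 1023 CPM in VX_Veh1, 384 in Sham_Veh1, 369 in Sham_Veh2, 298 in Sham_Veh4, 272 in VX_Veh2, 244 in VX_Veh3, 172 in VX_SHU2, 157 in Sham_SHU3 and at most 29.0 elsewhere. Foxj1, the regulator of motile cilia, was at 284 CPM in VX_Veh1 and 0.269 in VX_Veh4. The mesothelium list summed to 660 CPM in VX_Veh1, the highest of the 16, but most of that was the epithelial keratins Krt8 (341 CPM), Krt18 (185) and Krt19 (99.4). Of its other markers, Upk3b (4.39 CPM), Lrrn4 (2.31) and Upk1b (3.09) were at their lowest of all libraries in VX_Veh1. Msln (10.5 CPM), Wt1 (7.48) and Krt7 (7.87) were not. The adipocyte list was lowest in VX_Veh1 too. What share any of these cell types had in the levels of Lcn2, Wfdc2 or Defb29 was not tested.

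**Figure D3:**
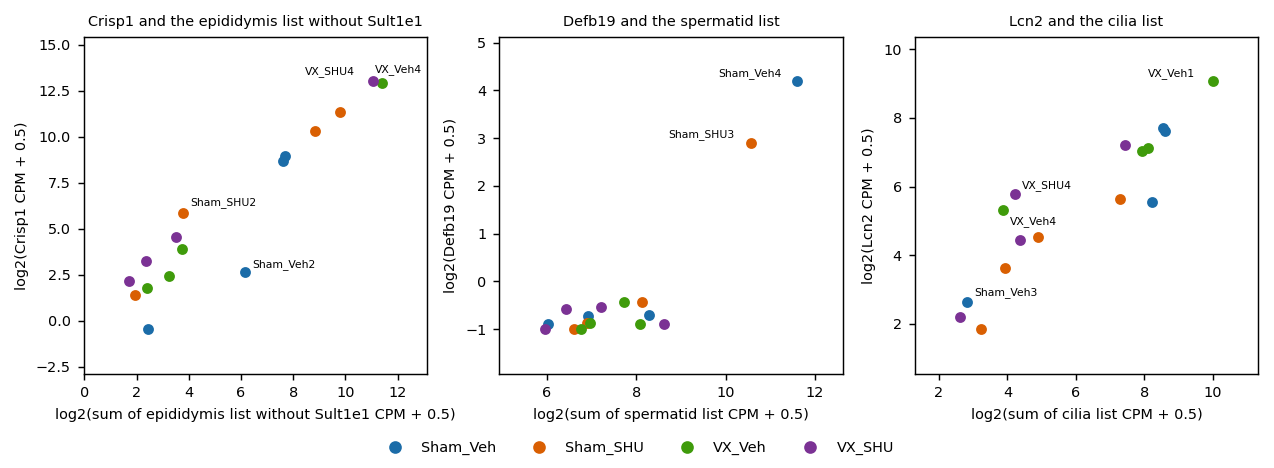
Each point is a library, coloured by group, with the log2 sum of a marker list across and the log2 level of a gene upward, both as CPM + 0.5: Crisp1 with the epididymis list without Sult1e1, Defb19 with the spermatid list and Lcn2 with the cilia list. The VX pair is at the upper right for Crisp1, Sham_Veh4 (17.7 CPM) and Sham_SHU3 (6.98 CPM) stand alone for Defb19, and VX_Veh1 is highest for Lcn2.

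Genes that lie together in the genome did not all behave alike. The members lay in 13 runs with gaps of at most 1 Mb. On chromosome 2, 164176325 to 164745994, the run held 14 Wfdc genes, of which 13 had at least 20 counts and 8 followed Crisp1, while Wfdc2 in its midst followed it in none of the 6 libraries. A run of 11 Defb genes at 152459055 to 152623053 of the same chromosome had 10 measured members, of which Defb22, Defb26 and Defb28 followed Crisp1, and Defb20, Defb25, Defb29 and Defb36 were above the other 10 in none of the 6.

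On chromosome 8, a run of 14 Defb genes (18974914 to 19497775) had 6 measured members, and 5 followed: Defb14, Defb37, Defb38, Defb39 and Defb40. A second run there (20892667 to 21948622) had 8 measured members, and 6 followed. The lipocalin run on chromosome 2 (25490845 to 26671282) had 5 measured members, with Lcn12 following and 4 in none of the 6. Wfdc17, Wfdc18 and Wfdc21, on chromosome 11 at 83704056 to 83752646, did not follow Crisp1 in all 6 libraries.

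The series crosses surgery with infusion, so each member that passed the filter was tested for SHU9119 within each surgery, for sDVX within each infusion and for their interaction. The 4 simple comparisons share groups, so they are not independent of each other. No member was called in any of the 5 comparisons. In edgeR's quasi-likelihood test 0 of 42 tested had an adjusted p under 0.05. The DESeq2 Wald test called none of those to which it gave an adjusted p (30, 21, 38, 38 and 38 members in the order above). At an unadjusted p under 0.05 there were 3 members for SHU9119 in sham mice, 2 for SHU9119 after sDVX, and 1 each for sDVX under vehicle, sDVX under SHU9119 and the interaction. That is 7.14%, 4.76%, 2.38%, 2.38% and 2.38% of the members, against 19.6%, 11.6%, 8%, 10.7% and 4.76% of all genes tested. Over all 16682 genes tested, edgeR called 0.114% for SHU9119 in sham mice, 0.00599% for SHU9119 after sDVX, and 0% for both sDVX comparisons and for the interaction. Without Sham_SHU3, 1 member passed for SHU9119 in sham mice: Wfdc12, with an edgeR adjusted p of 0.047, among 982 genes called. Its level was about 1 CPM (0.537 to 1.56), and 16.1% of its exon bases overlap a gene on the opposite strand.

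Crisp1 differed by a log2 fold change of 2.11 ± 2.78 (SE, 4 against 4 libraries) for SHU9119 in sham mice, with an edgeR adjusted p of 0.68. For SHU9119 after sDVX it was 0.10 ± 2.66 (edgeR adjusted p = 0.992), for sDVX under vehicle 3.08 ± 2.89 (edgeR adjusted p = 0.729; 0.88 ± 2.02 with the replicate block, edgeR adjusted p = 0.909) and for sDVX under SHU9119 1.07 ± 2.69 (edgeR adjusted p = 0.884). The interaction was -2.01 ± 3.81 (edgeR adjusted p = 0.999). Without the block, each standard error was at least 2.66 on the log2 scale, and every group mixed high and low libraries.

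The median log2 fold change of the 42 tested members was 1.62 for SHU9119 in sham mice (30 higher, 12 lower), against -0.06 over all genes. It was -0.26 for SHU9119 after sDVX (13 higher, 29 lower; all genes -0.02), 2.35 for sDVX under vehicle (36 higher, 6 lower; all genes 0.01), 0.82 for sDVX under SHU9119 (30 higher, 12 lower; all genes -0.01) and -1.79 for the interaction (11 higher, 31 lower; all genes -0.01). With no low-count filter, over the 69 members with a count, the medians were 0.21, -0.21, 1.31, 0.46 and -1.42 in the same order, and with the replicate block 0.57, -0.09, 0.39, -0.29 and -0.70. The medians also rested on single libraries. Without VX_Veh4 the median for sDVX under vehicle was -3.31 and that for SHU9119 after sDVX 4.85, and without VX_SHU4 those for SHU9119 after sDVX and sDVX under SHU9119 were -6.84 and -5.35. The interaction median was 3.72 without VX_Veh4 and -8.50 without VX_SHU4. For SHU9119 in sham mice the median was 0.51 without Sham_SHU4 and 2.54 without Sham_Veh3, and for sDVX under SHU9119 it was 1.89 without Sham_SHU4.

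Without all 6 Crisp1-high libraries, the sham groups kept only Sham_Veh1, Sham_Veh2, Sham_SHU1 and Sham_SHU2. The sDVX groups kept VX_Veh1 to VX_Veh3 and VX_SHU1 to VX_SHU3. In this smaller fit 26 members passed the filter and none was called in any comparison (lowest edgeR adjusted p = 0.0833, for SHU9119 in sham mice). At an unadjusted p under 0.05 there were then 11, 4, 5, 5 and 1 of the 26 members in the 5 comparisons, in the order above (42.3%, 15.4%, 19.2%, 19.2% and 3.85%). Over the 16644 genes of the same fit the shares were 32.4%, 21.2%, 3.44%, 11.3% and 7.11%. Their medians were then -1.65 for SHU9119 in sham mice, -0.88 for SHU9119 after sDVX, 0.45 for sDVX under vehicle, 2.66 for sDVX under SHU9119 and 0.99 for the interaction. The first and the last changed sign.

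Wfdc21 (chr11:83746940-83752646, plus strand), a WAP protein described as secreted by adipocytes, was the member with the smallest p in all 4 simple comparisons. It was at 22.9, 30.0, 22.7 and 29.1 CPM in Sham_Veh1 to Sham_Veh4 (26.2 ± 3.90, SD, n = 4) and 32.3, 65.9, 28.7 and 62.3 in Sham_SHU1 to Sham_SHU4 (47.3 ± 19.5). After sDVX it was at 7.13, 17.1, 11.8 and 9.68 CPM with vehicle (11.4 ± 4.23) and 21.7, 19.4, 35.1 and 26.4 with SHU9119 (25.7 ± 6.95). Every VX_Veh library was below every library of the other 3 groups, whereas Sham_SHU overlapped Sham_Veh and VX_SHU.

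The log2 fold change of Wfdc21 was 1.16 ± 0.312 (SE) for SHU9119 after sDVX, with an edgeR adjusted p of 0.427, and 0.85 ± 0.309 for SHU9119 in sham mice, with an edgeR adjusted p of 0.168. For sDVX it was -1.19 ± 0.312 under vehicle (edgeR adjusted p = 0.608) and -0.88 ± 0.309 under SHU9119 (edgeR adjusted p = 0.445). None passed the threshold, and the interaction was 0.31 ± 0.435 (edgeR adjusted p = 0.999). Without the 6 Crisp1-high libraries the 4 simple values were 1.10, 0.89, -1.12 and -0.92. Over the alternatives the adjusted p for SHU9119 after sDVX ran from 0.051 (DESeq2) to 1 (edgeR). The adipocyte sum was lowest in VX_Veh1 (14947 CPM), which also had the lowest Wfdc21. VX_Veh3 had 34993 CPM of adipocyte markers with 11.8 of Wfdc21, and Sham_Veh3 had the highest sum (46143 CPM) with the lowest Wfdc21 of its group. What the adipocyte share contributed was not tested.

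Wfdc21 was the only tested member whose groups did not overlap, higher for SHU9119 after sDVX and lower for sDVX under vehicle (1 of 42 each). Over all genes the groups did not overlap, in that direction, for 2.93% and 2.16%, so 1 of 42 is near the background. The other direction held 2.03% for SHU9119 after sDVX and 0.941% for sDVX under vehicle. For SHU9119 in sham mice 5.59% of genes were higher and 4.8% lower without overlap, and for sDVX under SHU9119 3.23% and 2.43%, with 0 of 42 members in each.

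Wfdc17, a WAP protein of activated macrophages, had the smallest p of the interaction (log2 0.96 ± 0.428, SE, edgeR adjusted p = 0.999). It was at 26.9, 24.9, 32.5 and 18.7 CPM in Sham_Veh1 to Sham_Veh4, 17.9, 35.0, 22.0 and 21.0 in Sham_SHU1 to Sham_SHU4, 13.5, 21.6, 15.7 and 23.5 in VX_Veh1 to VX_Veh4, and 28.1, 21.0, 29.1 and 56.3 in VX_SHU1 to VX_SHU4. All groups overlapped, and VX_SHU4 was the highest library. A list of 10 macrophage markers was also highest in VX_SHU4 (1275 CPM) and lowest in VX_Veh1 (586 CPM), and its part in the Wfdc17 level was not tested.

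**Figure D4:**
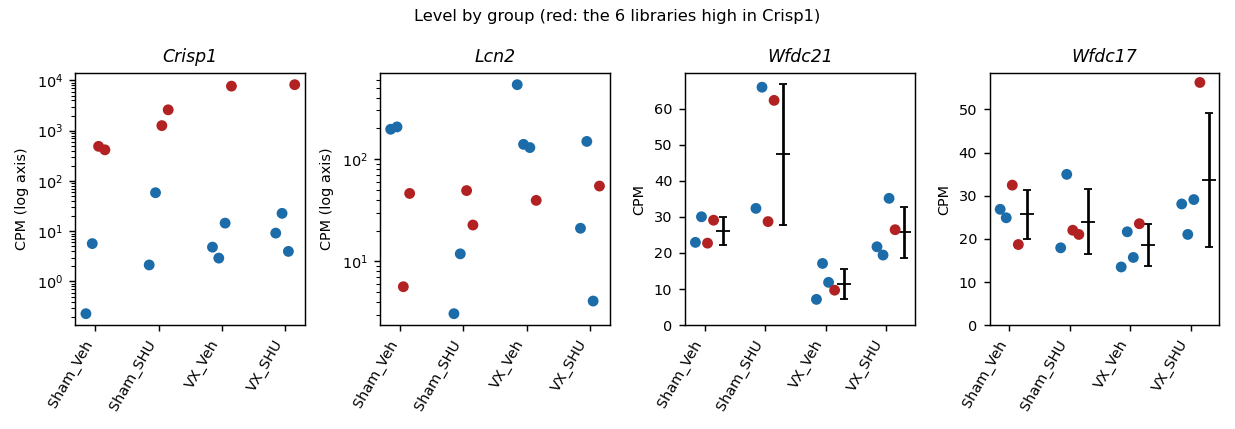
Level in CPM of Crisp1 and Lcn2 (log axes) and of Wfdc21 and Wfdc17 (linear axes) in each library by group, with red for the 6 libraries high in Crisp1; bars for Wfdc21 and Wfdc17 give the mean and SD of 4 libraries. Crisp1 is split within each group, and the VX_Veh libraries are lowest for Wfdc21 (7.13 to 17.1 CPM).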

How the data were processed

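The 16 libraries of gonadal fat polyA RNA made 4 groups of 4, per the labels. The deposited table holds counts per gene with NCBI gene numbers, which were checked to be whole numbers. The submitters' processing notes name bcl2fastq, TopHat, edgeR and the mm10 build; how reads were counted, with which annotation and on which strand, is not given in the sources used here. Symbols, gene types and coordinates (GRCm38) came from a RefSeq gene list, which matched 24374 of 24454 gene numbers, with 80 unmatched. Strands, exon lengths, transcript windows and exon overlaps came from GENCODE M21.

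Counts were analysed in R 4.3.3 with edgeR 4.0.16: filterByExpr by group kept 16682 genes, TMM factors scaled the 16 libraries, and a robust quasi-likelihood model fitted 1 mean per group, leaving 12 residual degrees of freedom. Benjamini-Hochberg adjustment ran over all 16682 genes, with a threshold of 0.05. Standard errors were computed by dividing each log2 fold change by the square root of its F. CPM are TMM-scaled, and figures add 0.5 before log2. Tables were handled in Python 3.11.15 with pandas 2.3.3. The fitting steps were tested on simulated data. Chi-square tests of the 24 replicate pairs gave 11.8 to 204 for each degree of freedom, and none was a duplicate.

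The members, the marker lists and the rules were chosen with earlier results of these data known. Genes named were Crisp1, Adam7 and Ces5a, the 6 members of each family with the highest mean CPM, and members past the threshold. The 3 narrowest and the 3 widest ratios to Crisp1, and the smallest p of each comparison, were named too. Other names, the epididymis sum without Sult1e1 and the neutrophil sum without Ltf were chosen after their values were seen. Members above the other 10 libraries in none of the 6 were named without values unless chosen otherwise.

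Groups share replicate numbers 1 to 4. Deviations from group means of same-numbered libraries correlated at -0.657 to 0.719 over 16 pairs, 9 of them over 0.1. All 4 were over 0.1 for sDVX under vehicle (0.719, 0.118, 0.128 and 0.152), but numbers 3 and 4 correlated best with 4 and 3 there. Numbers 3 and 4 reached 0.614 and 0.678 for SHU9119 after sDVX, and numbers 1 and 4 reached 0.665 and 0.49 for sDVX under SHU9119. Whether the numbers pair the libraries is therefore not settled by the data in any comparison. Alternatives were DESeq2 1.42.0 as size factors and as Wald test, no low-count filter, only the groups compared, the replicate block, other count minimums, CPM by totals, ratios to Adam7 and leaving out each library; leaving out the 6 Crisp1-high libraries, and the single genes' fold changes under each alternative, were added after seeing the data.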

Additional observations from a re-analysis of the deposited data

Results flagged for a closer look

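Each of 23 genes was checked in each of the 4 groups for a library far from the other 3 on the log2(CPM + 0.5) scale (92 checks, Dixon's test at 95%), and 25 checks were met. Chance meets about 1 in 20 independent checks, but these were not independent: VX_Veh4 and VX_SHU4 were known to be high in Crisp1, and most of the genes were named for a high mean level, which those 2 libraries largely set. The count of 25 therefore restates that choice and is not support for it. All but 3 of the 25 were VX_Veh4 or VX_SHU4 standing above the other 3 libraries of its group. In VX_Veh4 these were Adam7 (1864 CPM), Ces5a (1481), Defb28 (592), Wfdc15b (489), Wfdc10 (468), Wfdc13 (445), Defb43 (159), Defb2 (154), Defb37 (116), Defb11 (116), Defb40 (110.2) and Lcn12 (50.8). In VX_SHU4 they were Adam7 (2003 CPM), Ces5a (1463), Wfdc15b (529), Defb2 (186), Defb43 (151), Defb11 (116), Defb40 (92.6), Defb37 (69.5), Lcn12 (62.9) and Defb22 (37.1). The other 3 were Lcn8 (16.6 CPM), Lcn9 (9.21) and Lcn10 (1.82) in Sham_Veh2. No check was met in Sham_SHU. Crisp1 itself met none, and its 3 lower libraries in VX_Veh and VX_SHU spread over 2.92 to 14.5 and 3.97 to 22.7 CPM.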

How the results depend on the processing

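The number of members that followed Crisp1 was 29, and it was 27 to 29 under 3 other settings (27 with at least 100 counts) and 29 to 30 when any 1 library was left out. The median range of the ratio to Crisp1 was 1.38 on the log2 scale, 1.22 to 1.33 under 2 other settings and 1.08 to 1.42 without any 1 of the 6 libraries. The count of members past the threshold was 0 in each comparison under every setting but 1: leaving out each library in turn gave 0 to 1 for SHU9119 in sham mice. Genes past the threshold over the whole table moved more, from 19, 1, 0, 0 and 0 with edgeR to 1205, 54, 11, 93 and 8 with DESeq2.

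With each library left out in turn, the members' median log2 fold change ran from 0.51 to 2.54 for SHU9119 in sham mice, -6.84 to 4.85 for SHU9119 after sDVX, -3.31 to 3.35 for sDVX under vehicle, -5.35 to 1.89 for sDVX under SHU9119 and -8.50 to 3.72 for the interaction. Crisp1 itself ran from 0.95 to 2.80, -7.33 to 8.12, -4.94 to 3.78, -6.35 to 2.23 and -9.44 to 6.01 in the same order. Both ends for SHU9119 after sDVX and the interaction, and the low ends for both sDVX comparisons, came without VX_Veh4 or VX_SHU4, which leaves VX_Veh or VX_SHU with no library high in Crisp1. For SHU9119 after sDVX, whose main values are near 0, leaving out other VX libraries also changed the sign, to -0.32 at the lowest for Crisp1.

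The replicate block changed no call. With it the members' median was 0.39 for sDVX under vehicle and -0.29 for sDVX under SHU9119. Crisp1 for sDVX under SHU9119 reversed to -0.46 with the replicate block and to -1.29 without the 6 Crisp1-high libraries; the cause was not tested. Of the 16 same-numbered pairs, 6 correlated best with their own number, and none of those was in SHU9119 in sham mice.

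With 4 libraries a group, a Crisp1 difference with a standard error of 2.66 or more on the log2 scale cannot be told from 0 unless it is very large. Intervals between libraries cover these libraries only, and members under 20 counts, or near a shared copy, carry little weight.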
